A study of Mus musculus with 6 samples.

Results

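The transforming growth factor beta (TGF-beta) system was followed through 10 of its genes in the livers of mice with steatohepatitis: the ligands Tgfb1, Tgfb2 and Tgfb3, the latent binding proteins Ltbp1 and Ltbp3, the receptors Tgfbr1, Tgfbr2 and Tgfbr3, the intracellular inhibitor Smad7 and the secreted regulator Fstl1. They were taken by symbol from the deposited table, in which all 10 were found among 21956 genes. Messenger RNA had been measured by bulk sequencing in 6 livers. In 3 knockout mice (Stingfl/fl Cdh5-Cre+) the innate immune adaptor gene Sting1 was floxed and Cre recombinase was driven by the endothelial Cdh5 promoter. The 3 control mice (Stingfl/fl Cdh5-Cre-) were littermates that carried the floxed alleles without Cre, and effects of Cre expression and of the deletion cannot be told apart. Every mouse of both groups ate CDAHFD, a high-fat diet with defined amino acids and no choline that causes fatty, inflamed and scarred livers, for 10 weeks from the age of 8 weeks, and no animal on normal chow was compared.

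TGF-beta is secreted in a latent form, held by its own propeptide and tethered to the matrix by latent TGF-beta binding proteins, and has to be released by integrins or proteases before it can signal. The free ligand brings the type II receptor (Tgfbr2) to the type I receptor (Tgfbr1), which phosphorylates SMAD transcription factors, while Smad7 blocks that step and is itself induced by it. In the liver the pathway is known for driving stellate cells to become matrix-producing myofibroblasts.

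None of the 10 genes passed the genome-wide test. Tgfb2 stood at 43.2%, Tgfb3 at 50.5% and Fstl1 at 54.4% of the control mean in CPM (counts relative to the scaled library size). For each of them and for Ltbp1, every knockout library lay below every control library in CPM, as it did for 9.14% of all genes tested. Without control replicate 2 the log2 fold change of Fstl1 went from -0.88 to -0.48. Tgfb1, the most abundant ligand, stood at 107% of the control mean in CPM and at 86.3% in TPM, so that its direction depended on the scaling, and Smad7 stood at 99.5% in CPM. In CPM, Ltbp1 stood at 65.2%, Ltbp3 at 62.6%, Tgfbr1 at 74.3%, Tgfbr2 at 94.6% and Tgfbr3 at 94.2%.

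On GRCm38, Tgfb1 lies at chr7:25687002-25705077, Tgfb2 at chr1:186622792-186705989, Tgfb3 at chr12:86056745-86079041, Ltbp1 at chr17:75005568-75392512 and Ltbp3 at chr19:5740904-5758532. Tgfbr1 lies at chr4:47353222-47414931, Tgfbr2 at chr9:116084293-116175360, Tgfbr3 at chr5:107106570-107289629 and Fstl1 at chr16:37776873-37836514. These positions are from the GENCODE annotation, in which all 10 genes are protein-coding.

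The promoters of the least abundant ligand, of the most abundant one and of a binding protein are shown because they differ in the elements just before the start site. Each is the 250 bases upstream of a RefSeq transcript start on GRCm38.p6, written 5′ to 3′ along the gene's strand, and capitals mark TATAAA or the cyclic AMP response element TGACGTCA. Tgfb2 lies at chr1:186705990-186706239 on the minus strand, Tgfb1 at chr7:25686752-25687001 on the plus strand and Ltbp1, at the first of its 2 listed starts, at chr17:75005279-75005528 on the plus strand.
Tgfb2: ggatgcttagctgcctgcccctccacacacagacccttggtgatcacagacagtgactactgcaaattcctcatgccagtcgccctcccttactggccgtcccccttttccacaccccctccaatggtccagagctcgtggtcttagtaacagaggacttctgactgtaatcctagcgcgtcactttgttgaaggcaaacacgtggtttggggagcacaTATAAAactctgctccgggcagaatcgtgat
Tgfb1: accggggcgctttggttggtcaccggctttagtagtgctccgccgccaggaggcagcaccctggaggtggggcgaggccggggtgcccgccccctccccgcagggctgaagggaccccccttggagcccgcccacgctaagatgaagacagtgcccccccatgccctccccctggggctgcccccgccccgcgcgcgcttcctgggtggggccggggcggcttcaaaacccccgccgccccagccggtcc
Ltbp1: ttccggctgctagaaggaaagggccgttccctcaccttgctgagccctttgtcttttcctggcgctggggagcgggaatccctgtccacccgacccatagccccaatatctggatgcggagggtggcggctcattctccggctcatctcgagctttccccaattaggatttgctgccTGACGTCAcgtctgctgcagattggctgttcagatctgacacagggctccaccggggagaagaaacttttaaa

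The Tgfb2 window held TATAAA at positions -31 to -26 from the start site, and its base composition was 53.6% G and C. The Tgfb1 window had no TATAAA on either strand, was 75.2% G and C and held 5 copies of GGGCGG, the box bound by Sp1, counting both strands. The Ltbp1 window held TGACGTCA at positions -73 to -66. On both strands, TATAAA occurred in 12.4%, GGGCGG in 32.7% and TGACGTCA in 1.55% of 32851 such windows. Neither the AP-1 letters TGANTCA (6.75% of windows) nor the TEAD letters GGAATG (12.6%) occurred in the windows of the 7 genes matched by symbol. The SMAD half-site GTCTG (42.2% of windows) occurred in Tgfb2, Ltbp1, Ltbp3, Tgfbr1 and Tgfbr2, overlapped none of the other motifs in these windows, and was not found in the windows of Tgfb1 or Fstl1. Windows of Tgfb3, Tgfbr3 and Smad7 were not used here. A match is a description of the letters and was tied to no measurement of binding.

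Library totals ran from 16704663 to 21025466 counts. The labels name both liver and sinusoidal endothelial cells; albumin (Alb), the main hepatocyte secretory protein, took 6.91% to 10.9% of the counts, so the values are those of whole liver, in which fewer cells of a type and less RNA per cell cannot be told apart. Sting1 had 106, 114 and 80 counts in knockout livers, against 240, 365 and 226 counts in control livers, with no overlap (log2 fold change -1.29, standard error 0.23). Control replicate 2 stood apart, with an Alb share of 6.91% against 9.07% to 10.9% elsewhere and a library scaling factor of 1.258 against 0.9215 to 1.013. In TPM (the authors' transcript abundance scaled to gene length) it was the highest of the 6 libraries for 10 of the 10 TGF-beta genes, against 67.2% of all genes tested. In CPM it was the highest for 7 of the 10, against 25.3% of all genes tested.

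In levels per gene length, Tgfb1 came first and Tgfb2 last in both groups. In knockout livers mean TPM was 27.1 for Tgfb1, 22.6 for Tgfbr2, 19.6 for Tgfbr1, 11.8 for Fstl1, 6.83 for Smad7, 5.35 for Tgfbr3, 4.79 for Ltbp3, 3.03 for Ltbp1, 1.84 for Tgfb3 and 0.766 for Tgfb2. In control livers Tgfb1 (31.45), Tgfbr1 (31.3), Tgfbr2 (28.5) and Fstl1 (27.3) came first, followed by Ltbp3 (8.88), Smad7 (7.62), Tgfbr3 (6.82), Ltbp1 (5.64), Tgfb3 (4.54) and Tgfb2 (1.98). Among neighbours in the knockout order, Tgfbr2 and Tgfbr1 differed by less than the larger of their SDs, as did Tgfbr3 and Ltbp3. In the control order the first 4 genes did not differ beyond that spread, nor did any neighbours from Ltbp3 down to Tgfb3. Tgfb2 was the lowest of the 10 genes in each of the 6 libraries.

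**Figure D1:**
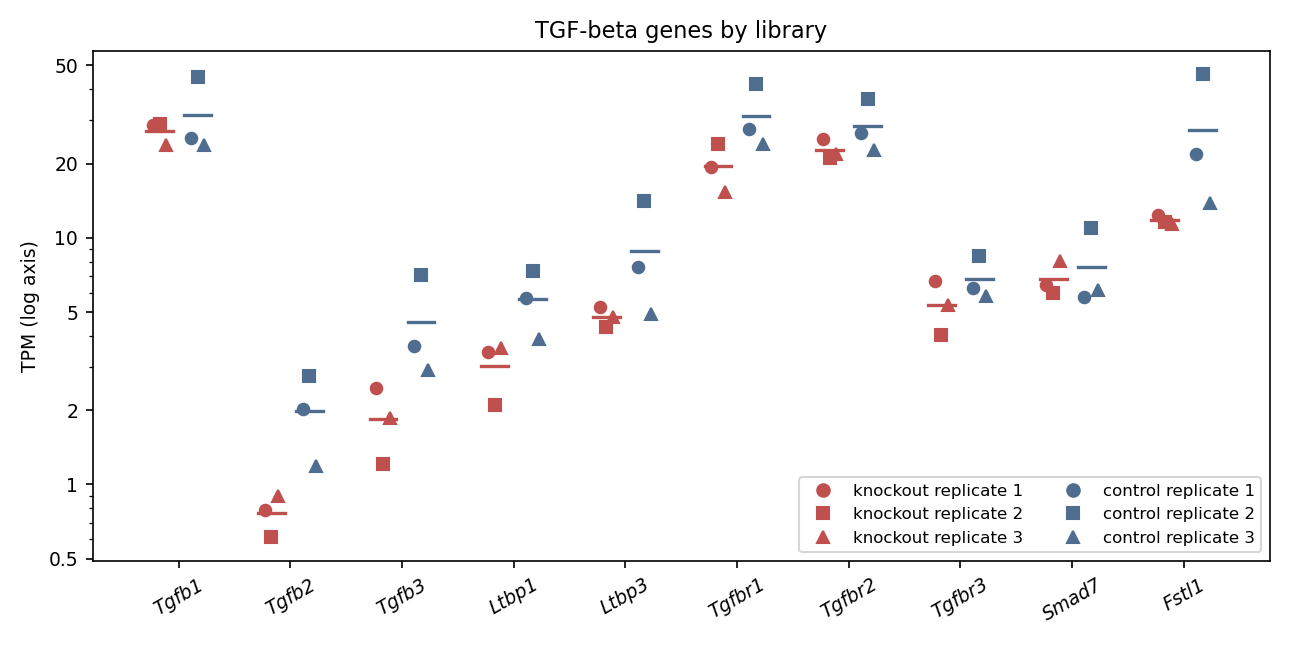
TPM of the 10 TGF-beta genes (vertical log axis) in 3 knockout (red, left of each pair) and 3 control livers (blue, right), 1 point per animal, with the group mean as a line. For Tgfb2, Tgfb3, Ltbp1, Tgfbr1 and Fstl1 the red points all lie below the blue ones, and control replicate 2 (blue square) is the highest point for each gene.

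Of the 3 ligands, Tgfb2, an isoform that depends on the co-receptor betaglycan for binding to the type II receptor, had the smallest p of the 10 genes. It stood at 0.789, 0.609 and 0.9 TPM in knockout livers 1 to 3, against 2.02, 2.74 and 1.19 TPM in control livers 1 to 3. All 3 knockout animals were lower than all 3 control animals, and control replicate 3 lay nearest to them. Its fold change on the log2 scale was -1.21, with a standard error of 0.33 and a 95% interval of -1.95 to -0.46 (edgeR's quasi-likelihood test, unadjusted p = 0.00552, adjusted p = 0.367 over all genes with Benjamini-Hochberg adjustment). The reads were few, from 26 to 44 counts in knockout and from 63 to 121 in control libraries. The exact Poisson 95% interval, which covers counting error only, was 32.0 to 59.1 for the 44 counts of knockout replicate 3 and 48.4 to 80.6 for the 63 counts of control replicate 3, so that the intervals of these nearest animals overlapped.

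Tgfb3, an isoform needed for closure of the palate in mice, stood at 2.46, 1.21 and 1.85 TPM in knockout livers, against 3.63, 7.06 and 2.92 TPM in control livers. The groups did not overlap, and knockout replicate 2 and control replicate 2 were the extremes. The log2 fold change was -0.98 (standard error 0.32, 95% interval -1.71 to -0.26, edgeR unadjusted p = 0.0136, adjusted p = 0.381). Tgfb1, which platelets and macrophages release and which is the best known driver of liver fibrosis, stood at 28.6, 28.9 and 23.8 TPM in knockout livers, against 25.5, 44.9 and 23.9 TPM in control livers. Its groups overlapped, and only control replicate 2 was far from the rest. On the log2 scale its difference was 0.10 with a standard error of 0.16 and a 95% interval of -0.27 to 0.47 (edgeR adjusted p = 0.835). That direction depended on the scaling: without scaling factors the value was -0.144, where the median of all genes also lay at -0.209.

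The make-up of the ligand transcripts can be read without scaling between libraries. Tgfb2 made up 2.47%, 1.98% and 3.39% of the summed ligand TPM in knockout livers, against 6.49%, 5.01% and 4.23% in control livers. Tgfb3 made up 7.73%, 3.93% and 6.97% in knockout livers, against 11.7%, 12.9% and 10.4% in control livers. Tgfb1 accordingly held a mean share of 91.2% ± 2.52 (SD, n = 3) in knockout and 83.1% ± 1.95 (SD, n = 3) in control livers. All 3 shares were without overlap between the groups, and the share of Tgfb2 in control replicate 2 was not an extreme one. Shares of 1 sum are tied to each other, and they were given no test because the genes had been chosen together.

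In raw counts the ratio of Tgfb2 to Tgfb1 was 0.059, 0.0402 and 0.0783 in knockout livers, against 0.178, 0.145 and 0.107 in control livers. The ratio of Tgfb3 to Tgfb1 was 0.135, 0.065 and 0.121 in knockout livers, against 0.226, 0.247 and 0.195 in control livers. Both ratios were lower in every knockout animal than in every control animal. The ratio to Tgfb1 was also lower in every knockout animal for Fstl1, at 0.697 to 0.833 against 1.04 to 1.81. For Ltbp3 it was 0.291 to 0.336 against 0.425 to 0.613, and for Ltbp1 0.178 to 0.374 against 0.402 to 0.575. The separation was thus not particular to the ligands, and its share over all genes was not computed.

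**Figure D2:**
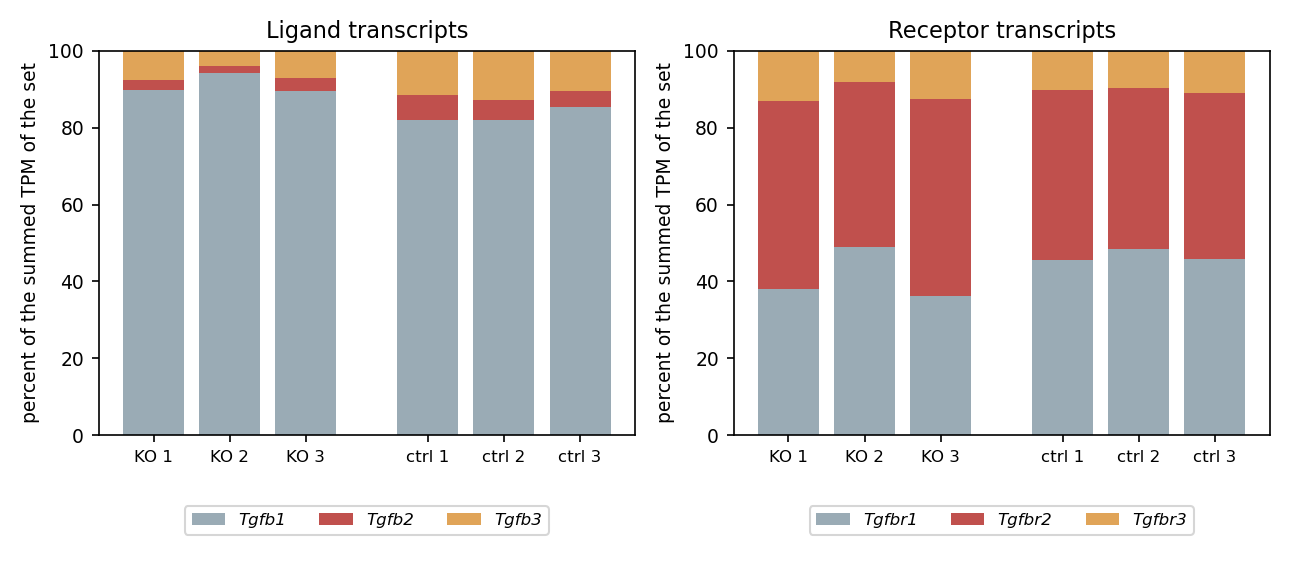
Percent of the summed TPM held by each ligand (left) and each receptor (right), 1 bar per liver, with knockout (KO) 1 to 3 left of control (ctrl) 1 to 3. The band of Tgfb2 spans 1.98% to 3.39% in knockout and 4.23% to 6.49% in control livers, whereas the receptor bands overlap between the groups.

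The latent binding proteins were also lower on average. Ltbp1, which anchors the latent complex in the matrix, stood at 3.44, 2.1 and 3.56 TPM in knockout livers, against 5.7, 7.34 and 3.89 TPM in control livers. Its groups did not overlap, although knockout replicate 3 and control replicate 3 were close together. The log2 fold change was -0.61 (standard error 0.24, 95% interval -1.17 to -0.06, edgeR adjusted p = 0.427).

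Ltbp3, a binding protein needed for normal bone and teeth, stood at 5.25, 4.35 and 4.77 TPM in knockout livers, against 7.61, 14.1 and 4.93 TPM in control livers. Control replicate 3 lay between knockout replicates 1 and 3, so that the groups overlapped. The log2 fold change was -0.68 (standard error 0.25, 95% interval -1.24 to -0.11, edgeR adjusted p = 0.403), and it was -0.37 without control replicate 2.

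Counts and TPM ranked the Ltbp3 libraries differently. Knockout replicate 2 had the most Ltbp3 counts of its group, 217 against 202 and 183, and the lowest TPM. The gene length implied by counts over TPM was 120.5% of the gene's own average in that library, against 84.7% and 87.7% in the other knockout libraries and 98.7% to 108.4% in control libraries. The ratio of longest to shortest, 1.42, exceeded that of 93.5% of genes. The ratio of Smad7 exceeded that of 92.3% of genes, that of Tgfb2 was 1.23, and the other genes had at most 1.07. The sources used here do not say if reads were counted by strand.

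Among the receptors, Tgfbr1, the type I kinase also called ALK5, stood at 19.4, 24.1 and 15.3 TPM in knockout livers, against 27.7, 42.0 and 24.1 TPM in control livers. Knockout replicate 2 and control replicate 3 nearly coincided: they were just apart in TPM and overlapped in CPM, at 73.0 and 72.2. The log2 fold change was -0.43 (standard error 0.18, 95% interval -0.83 to -0.03, edgeR adjusted p = 0.441).

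Tgfbr2, the type II receptor that binds the ligand first, stood at 25.1, 21.1 and 21.8 TPM in knockout livers, against 26.6, 36.4 and 22.6 TPM in control livers. Its log2 difference was -0.08 with a standard error of 0.14, and the 95% interval bounded it between 0.754 and 1.19 times the control level (edgeR adjusted p = 0.848). Tgfbr3, betaglycan, the membrane proteoglycan that presents ligand to the signalling receptors, stood at 6.69, 4.05 and 5.32 TPM in knockout livers, against 6.23, 8.42 and 5.82 TPM in control livers. The groups overlapped for both receptors. The log2 difference of Tgfbr3 was -0.08 with a standard error of 0.19 and an interval of 0.698 to 1.27 times the control level (edgeR adjusted p = 0.883), and it turned to 0.0889 without knockout replicate 2.

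The receptor make-up varied more within the knockout group than between the groups. The share of Tgfbr1 in the summed receptor TPM was 37.9%, 48.9% and 36.1% in knockout livers, against 45.7%, 48.4% and 45.9% in control livers. Knockout replicate 2 thus lay above the controls and the other knockout animals below them. The same animal had the lowest Tgfbr3 share, 8.22%, against 13.1% and 12.6% in the other knockout livers and 9.7% to 11.1% in control livers.

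Smad7, at chr18:75367529-75395935 on GRCm38, stood at 6.43, 6 and 8.07 TPM in knockout livers, against 5.75, 11 and 6.17 TPM in control livers, with overlapping groups. Its log2 difference was -0.01 with a standard error of 0.18, an interval of 0.75 to 1.32 times the control level (edgeR adjusted p = 0.992). The sign of so small a value changed with the scaling and the filter.

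Fstl1, follistatin-like 1, is a secreted glycoprotein of mesenchymal cells that has been linked to TGF-beta and BMP signalling and to fibrosis in mice. It stood at 12.4, 11.6 and 11.4 TPM in knockout livers, against 21.8, 46.2 and 13.9 TPM in control livers. The knockout animals lay close together and all below the control animals, whose spread was far wider (11.8 ± 0.544 and 27.3 ± 16.8 TPM, SD, n = 3 each). The log2 fold change was -0.88 (standard error 0.28, 95% interval -1.52 to -0.24, edgeR unadjusted p = 0.0128, adjusted p = 0.381). Without control replicate 2 it was -0.48.

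**Figure D3:**
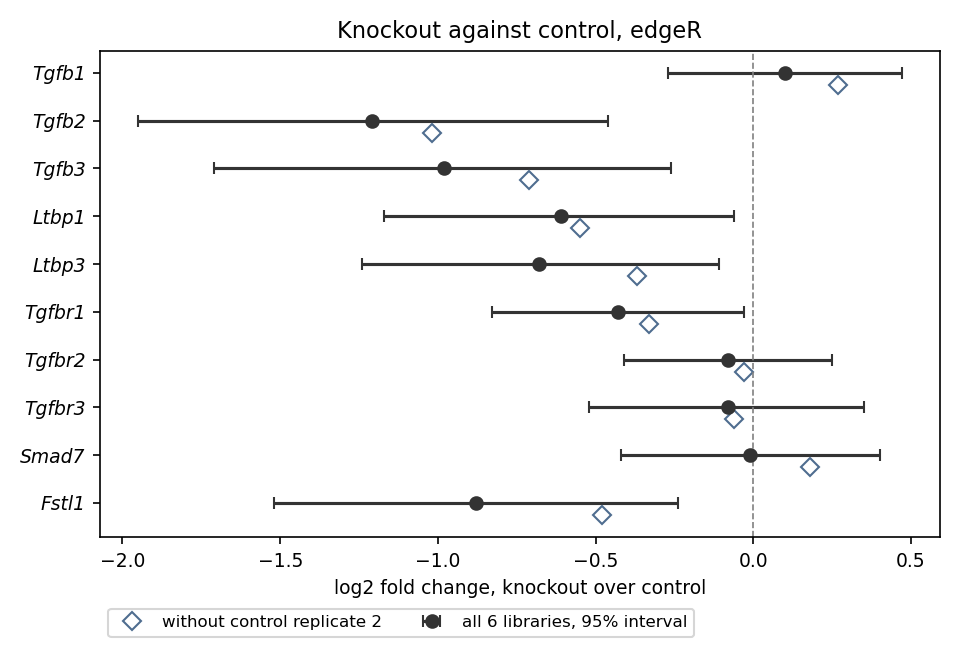
Log2 fold change of each gene, knockout over control (horizontal axis), in edgeR with all 6 libraries (filled points, bars are 95% intervals) and without control replicate 2 (open diamonds). Tgfb2 lies at -1.21 and -1.02, Fstl1 at -0.88 and -0.48, and Tgfb1 at 0.10 and 0.27.

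Counted over the genes, 0 of 10 passed an adjusted p of 0.05 in edgeR, as did 0.00% of the 13197 genes tested, where the smallest adjusted p was 0.357. All 10 passed the filter on low counts. At an unadjusted p under 0.05 there were 6 of the 10, all lower in the knockout (Tgfb2, Fstl1, Tgfb3, Ltbp3, Ltbp1 and Tgfbr1), against 7.00% of genes tested that were lower at that level. The knockout libraries lay wholly below the control libraries for 4 of the 10 in CPM, against 9.14% of genes tested, and for 5 of the 10 in TPM, against 18.6%. The median log2 fold change was -0.52 over the 10 genes and 0.01 over all genes. With single libraries left out, the median of the 10 ran from -0.632 without control replicate 3 to -0.349 without control replicate 2. DESeq2 called 0 of the 10, with Tgfb2 nearest at an adjusted p of 0.0998, and 0.623% of all genes as lower. The 10 genes were chosen with earlier results of these data known, so these counts are not independent evidence of a direction.

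With 3 animals against 3, an exact permutation test cannot fall below 0.1. The two-sided exact permutation p for mean TPM was at that smallest value for Tgfb2, Tgfb3, Ltbp1, Tgfbr1 and Fstl1. It was 0.2 for Ltbp3 and Tgfbr2, 0.3 for Tgfbr3, 0.8 for Tgfb1 and 0.9 for Smad7.

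Leaving out each library in turn kept Tgfb2, Tgfb3, Ltbp1, Ltbp3, Tgfbr1 and Fstl1 below 0 in all 6 fits. In any 1 of these fits 47.7% to 50.3% of all genes were below 0. Tgfb2 ran from -1.43 to -1.02, Tgfb3 from -1.25 to -0.71, Fstl1 from -1.13 to -0.48, Ltbp3 from -0.88 to -0.37, Ltbp1 from -0.76 to -0.40 and Tgfbr1 from -0.58 to -0.29. Without control replicate 2, Tgfb2 and Fstl1 were the 2 genes at an unadjusted p under 0.05, against 4.13% of all genes lower at that level. Their edgeR adjusted p was then 0.594 for Tgfb2 and 0.618 for Fstl1. Tgfb1 then stood at 0.27 and Smad7 at 0.18, neither of which passed. Of the controls, replicate 3 was the one nearest to the knockout group, and without it the values of all 6 lower genes were farther from 0 than with all libraries.

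**Figure D4:**
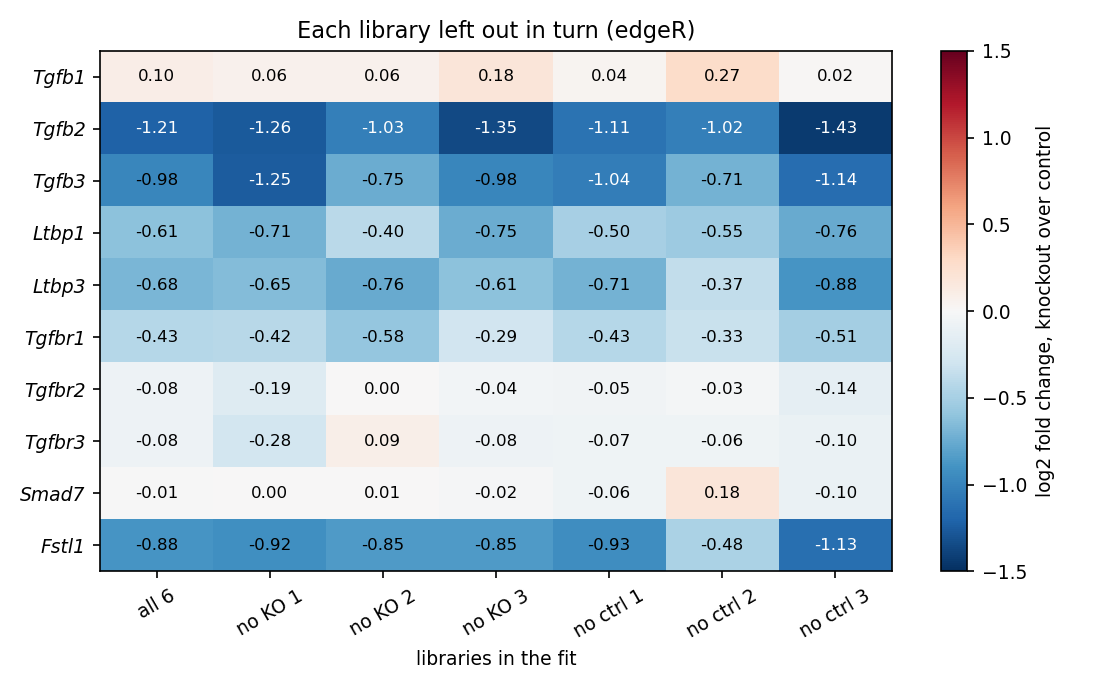
Log2 fold change of each gene (rows), knockout over control, with all 6 libraries and with each library left out in turn (columns, where no KO 1 means without knockout replicate 1 and no ctrl 1 without control replicate 1). The rows of Tgfb2, Tgfb3, Ltbp1, Ltbp3, Tgfbr1 and Fstl1 are below 0 in every column, and Tgfb1 is above 0 in every column.

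The genes most like Tgfb2 over the 6 libraries, by Pearson correlation of log2 CPM, were Capn5 (r = 0.9965, Spearman's rho 1), Plekhh2 (r = 0.9928), Col4a4, a basement membrane collagen chain (r = 0.9905), and Naalad2 (r = 0.988). Those most like Fstl1 were Adamts1, a matrix protease (r = 0.9964), Grb10, an adaptor of the insulin receptor (r = 0.9929), Fbn1, the microfibril protein fibrillin (r = 0.9928), and Sema3f (r = 0.9924). For Tgfb3 they included Ppp1r26 (r = 0.996), Egflam (r = 0.9959) and Clic6 (r = 0.9924). These are the highest of all genes tested over 6 points that share their groups, so they are a description and carry no p, and 261 to 401 genes per comparison had r over 0.9.

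Among the 10 genes themselves, r was 0.97 between Ltbp3 and Fstl1, 0.94 between Tgfb2 and Ltbp1, 0.93 between Tgfb2 and Tgfb3 and 0.84 between Tgfbr2 and Tgfbr3. Between Tgfb1 and Tgfb2 it was -0.13, and between Tgfb1 and Smad7 it was 0.79.

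Levels of cell type markers are given beside these results, without a test of the lists. Over all genes tested, 48.8% had a log2 fold change below 0. Of 12 stellate cell and myofibroblast markers 11 were below 0, and their summed CPM, here taken over total counts, ran from 1120 to 1310 in knockout and from 1350 to 2870 in control livers. Of 12 cholangiocyte markers, which mark bile duct cells, 11 were tested and all 11 were below 0, with sums of 241 to 551 in knockout and 529 to 1650 in control livers. Spp1, also the most abundant gene of the macrophage list, held 610, 278 and 338 of the 673, 297 and 379 TPM of the cholangiocyte list in knockout livers, against 985, 2000 and 603 of 1080, 2180 and 649 TPM in control livers. The 6 portal fibroblast markers summed to 34.4 to 52.1 in knockout and 42.5 to 139 in control livers, and 3 of the 5 tested were below 0. Sinusoidal endothelial markers, of which 1 of 12 was below 0, summed to 690 to 731 in knockout and 602 to 741 in control livers. Of 6 vascular endothelial markers 5 were below 0 (median log2 value -0.51), with sums of 86.9 to 102 in knockout and 93.7 to 118 in control livers. The 5 mesothelial markers summed to 2.21 to 4.59 in knockout and 5.09 to 15.2 in control livers, without overlap. The 2 of them that were tested were both below 0. Krt19, also on the cholangiocyte list, was the most abundant of them. It held 4.33, 1.3 and 3.75 of their 4.75, 2.32 and 4.88 TPM in knockout livers. In control livers it held 7.67, 16.4 and 4.36 of 9.98, 18.1 and 5.38 TPM. The vascular smooth muscle markers, 2 of 4 tested and 0 below 0, summed to 10.3 to 19.7 in knockout and 10.6 to 18.3 in control livers. Of 8 Kupffer cell markers 0 were below 0, with sums of 722 to 896 in knockout and 441 to 786 in control livers. Monocyte and lipid-associated macrophage markers, 4 of 8 below 0, summed to 1130 to 1740 in knockout and 1650 to 3320 in control livers. T and natural killer cell markers, 1 of 8 below 0, summed to 13.7 to 24.9 in knockout and 11.1 to 16.0 in control livers. Hepatocyte markers, 2 of 8 below 0, summed to 122000 to 136000 in knockout and 93700 to 124000 in control livers. The 5 platelet and megakaryocyte markers, 2 of them tested and 0 below 0, summed to 3.69 to 5.35 in knockout and 4.5 to 5.52 in control livers. All 6 proliferation genes were below 0, with sums of 29.7 to 47.1 in knockout and 58.2 to 179 in control livers. Over total counts the sums did not overlap for the stellate cell, mesothelial and proliferation lists and overlapped for the others. In TPM the stellate cell sums did overlap, at 664 to 874 in knockout and 852 to 1620 in control livers. The sums were not divided by the library scaling factors behind the fold changes (0.9215 to 0.941 in knockout, 0.9751 to 1.258 in control). Such scaling would raise knockout sums relative to control sums, so which lists separate depends on the scaling. No marker of these lists was at 0 in all libraries.

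Within-library ratios to these markers were computed after the values had been seen. Per 1000 counts of the stellate cell list, Tgfb2 had 1.53, 1.13 and 2 counts in knockout livers, against 2.73, 2.52 and 2.23 in control livers, again without overlap. Fstl1 had 19.8, 19.6 and 21.2 in knockout livers, against 23.3, 31.4 and 21.6 in control livers, which also did not overlap, with knockout replicate 3 and control replicate 3 close together. The ratios of Tgfb3, Ltbp1, Ltbp3 and Tgfbr1 overlapped. Those of Tgfb1 and Smad7 were higher in every knockout animal, at 25.5 to 28.1 against 15.3 to 20.9 for Tgfb1. Dcn, the most abundant gene of the stellate cell list in TPM, averaged 561 CPM in knockout and 660 CPM in control livers. Col3a1 of that list averaged 305 and 568 CPM. Col3a1, Col1a1 and Acta2 also stand in the list of TGF-beta-induced transcripts below. These ratios are to such transcripts and not to a number of cells. Per 1000 counts of the cholangiocyte list, Tgfb2 had 3.65, 5.82 and 7.18 counts in knockout livers, against 6.08, 4.38 and 5.66 in control livers, and the groups overlapped. That ratio is mostly one to Spp1. Per 1000 counts of that list Tgfb1, Tgfbr2, Tgfbr3 and Smad7 were higher in every knockout animal, and Tgfb3, Tgfbr1, Ltbp1, Ltbp3 and Fstl1 overlapped. The share of all genes whose ratios to either list separate was not computed. The ratios are a description, and the part of these cell types in the levels of the TGF-beta genes was not tested.

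The rest of the pathway was read from lists of other genes. Over all genes tested, 48.8% were below 0 and the median log2 fold change was 0.01. Of 18 genes of ligand latency and activation 12 were below 0 and 6 above, with a median of -0.25. Without control replicate 2 that median was -0.103. None passed the adjusted test, and 5 were lower and 0 higher at an unadjusted p under 0.05 (7.00% and 3.75% of all genes). The smallest p belonged to Itgb8, the integrin chain that releases TGF-beta from its latent complex, at 0.739, 0.336 and 0.45 TPM in knockout livers against 1.8, 4.07 and 0.992 TPM in control livers (log2 fold change -1.82, standard error 0.44, edgeR adjusted p = 0.367). The groups did not overlap for Itgb8. Ltbp2, a matrix protein of the same family that does not bind latent TGF-beta, had a log2 fold change of -1.20, the gelatinase Mmp2 one of -0.91 and fibrillin Fbn1 one of -1.01.

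Of 12 receptors and co-receptors of the wider family 11 were tested, all but Cd109. Their median was 0.09, and leaving out knockout replicate 1 gave -0.126, control replicate 1 gave 0.136 and control replicate 2 gave 0.00584. With all libraries 4 were below 0, and these 4 were each lower at an unadjusted p under 0.05, against 7.00% of all genes. They were the activin receptor Acvr2a (-0.47), the BMP receptors Bmpr1a (-0.38) and Bmpr2 (-0.32), and Bambi, a decoy receptor (-0.66). The endothelial receptors Eng and Acvrl1 had values of 0.12 and 0.01, and were named after their values had been seen.

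Of 9 secreted inhibitors and binders 8 were below 0, with a median of -0.42. At an unadjusted p under 0.05 there were 2, both lower, against 7.00% of all genes lower at that level. The median was -0.195 without control replicate 2, -0.722 without knockout replicate 1 and -0.716 without control replicate 3. Htra1, a secreted protease, stood at -1.04, the activin antagonists Fst and Fstl3 at -1.22 and -1.01, and Lrg1, an acute-phase glycoprotein, at 0.53. Fst was highest in control replicate 1, at 18.8 TPM against 7.65 and 5.01 in the other control livers and 3.03 to 4.85 in knockout livers.

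Of 22 SMAD proteins and their regulators 15 were below 0, with a median of -0.11, and it was -0.05 without control replicate 1. At an unadjusted p under 0.05 there were 2 lower and 0 higher, a share near the 7.00% of all genes lower at that level. These were Tgif2, a SMAD corepressor, at -1.22 and Trim33, a ubiquitin ligase acting on SMADs, at -0.46. Pmepa1 and Skil, inhibitors that TGF-beta itself induces, stood at -0.64 and -0.35. None of these 4 passed the adjusted test.

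Of 32 transcripts known to be induced by TGF-beta 30 were tested, all but Cdkn2b and Il11. In all, 23 were below 0 and 7 above, with a median of -0.57. Without control replicate 2 that median was -0.199, and the lowest value with a library left out was -0.807, without control replicate 3. At an unadjusted p under 0.05 there were 9 lower and 2 higher (7.00% and 3.75% of all genes). In either direction 0 passed the adjusted test. Ccn2, a matricellular protein, stood at 15.6, 12.7 and 15.7 TPM in knockout livers against 51.8, 89.7 and 30.8 TPM in control livers, without overlap (log2 fold change -1.64, standard error 0.25, edgeR adjusted p = 0.357). The cell cycle inhibitor Cdkn1a stood at -1.28 and Ltbp2 at -1.20, whereas Junb, an AP-1 subunit, stood at 0.51. In CPM Junb averaged 46.3 ± 6.35 in knockout and 32.5 ± 4.75 in control livers (SD, n = 3 each) without overlap, but in TPM control replicate 2 (44.8) lay among the knockout livers (39.6 to 49.5). Ltbp2, Thbs1, Itgb6, Pmepa1, Skil and Smad6 stand in this list and in 1 of the others. The earlier results of these data were known when the lists were drawn up, so that the counts are not independent evidence of a direction.

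**Figure D5:**
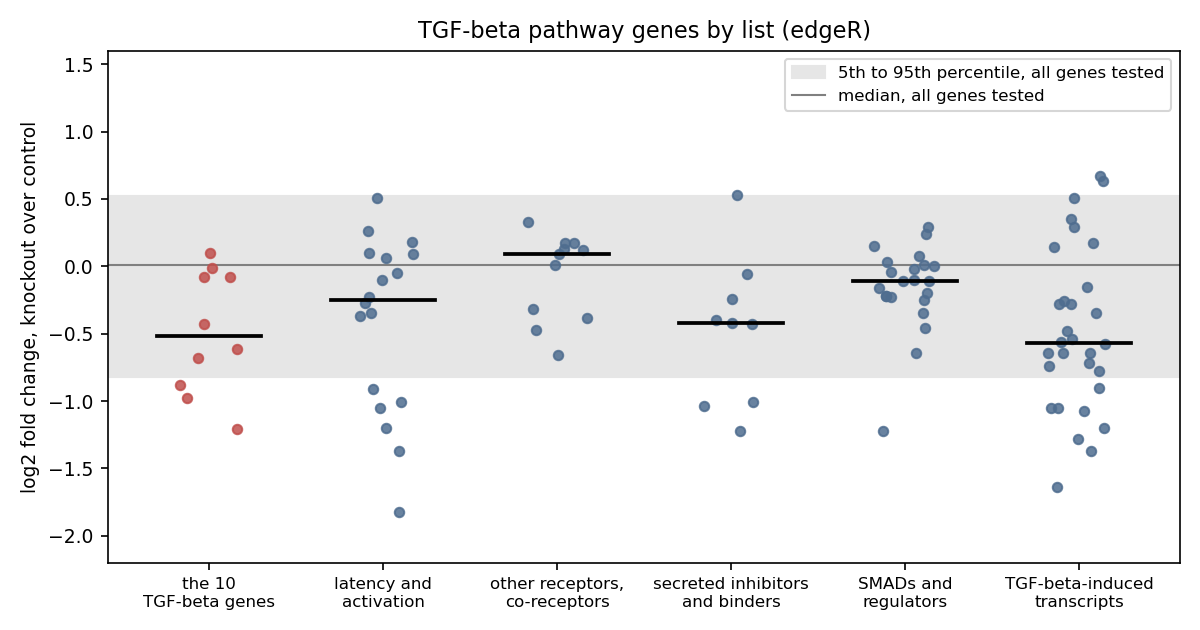
Log2 fold change, knockout over control (vertical axis), of the 10 TGF-beta genes (red) and of the tested members of 5 pathway lists (blue), 1 point per gene with the list median as a black line. The grey band spans the 5th to 95th percentile of all genes tested, from -0.82 to 0.52, and the list medians run from -0.57 to 0.09, or from -0.199 to 0.00584 without control replicate 2 (not drawn).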

How the data were processed

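The authors deposited 1 table with a value in 2 units for each of the 6 libraries: estimated counts, not normalized, of which 6.93% were not whole, and TPM, in which they had divided by gene length and by library size. Named per the submitters' processing notes, without their roles, are RSEM 1.3.3, HISAT2 2.2.1, DESeq2 1.38.3 and fastp 0.23.2, and the build GRCm38. The animals are biological replicates per the labels, and no 2 libraries of a group were close enough to be repeats.

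Estimated counts were rounded and tested with edgeR 4.0.16 (TMM scaling, filterByExpr, robust quasi-likelihood fit, Benjamini-Hochberg adjustment over all 13197 genes, threshold 0.05). CPM values use TMM-scaled library sizes unless stated. Standard errors were derived from the F statistic. Alternatives were DESeq2 1.42.0, limma-voom (limma 3.58.1), other scalings and filters, limma on log2(TPM + 1) and log2(TPM + 0.1), a replicate block and each library left out. The fits were tested on simulated data. The genes and lists were chosen with earlier results of these data known. The genes named are the 10, Sting1, the 4 of each list with the smallest p and the 4 most like each of the 3 genes with the smallest p, and not all of these are reported here. Eng, Acvrl1, Alb and the genes named from the cell type lists lie outside that rule. So do genes named as shared between lists or as not tested. Marker ratios were added after the values were seen. R 4.3.3, Python 3.11.15, scipy 1.17.1 and matplotlib 3.10.9 were used. Promoter sequences are from RefSeq on GRCm38.p6.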

Additional observations from a re-analysis of the deposited data

How the results depend on the processing

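The count of genes passing the adjusted test, 0 in edgeR, was 127 in DESeq2 and 5 with the replicate number as a block, and ran from 0 to 2 when single libraries were left out. No TGF-beta gene was called under any of the 15 alternatives. The correlations of same-numbered animals were 0.115, -0.00678 and 0.133, and nothing in the labels pairs them, so the replicate block rests on a shared number only. Sting1 passed in DESeq2 (log2 fold change -1.28, adjusted p = 0.00197). Tgfb2, Tgfb3, Ltbp1, Ltbp3, Tgfbr1 and Fstl1 were below 0 in all 15 alternatives. In 3 of these most genes were below 0: 78.8% with total counts only, 81.0% in log2(TPM + 1) and 80.9% in log2(TPM + 0.1). The share of all genes below 0 in all 15 was not computed. Tgfb1 changed sign to -0.144 with total counts only, -0.154 in log2(TPM + 1) and -0.157 in log2(TPM + 0.1), settings in which the median of all genes lay at -0.209, -0.198 and -0.229. Tgfbr3 ran from -0.28 to 0.0889 with single libraries left out, positive only without knockout replicate 2. Smad7, at -0.01, turned to 0.00875 in DESeq2, 0.00962 in limma-voom, 0.00361 with RLE scaling, 0.000986 with no filter, 0.00986 with the replicate block, 0.00893 without knockout replicate 2 and 0.18 without control replicate 2, and its lowest value with 1 library left out was -0.104. The median of the receptor and co-receptor list turned to -0.121 with total counts only and -0.126 without knockout replicate 1, and reached 0.136 without control replicate 1. With total counts only, the medians of the other 4 lists ran from -0.839 to -0.327. The cause of these changes was not tested. Tgfb2 and Tgfb3 had the fewest reads, which limits their precision.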
